A study of Mus musculus with 12 samples.

Results

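The CXC chemokines and fractalkine are small secreted or membrane-anchored proteins that direct the movement of leukocytes, and 10 of their genes were chosen by symbol: Cxcl1, Cxcl2, Cxcl5, Cxcl9, Cxcl10, Cxcl11, Cxcl12, Cxcl14, Cxcl16 and Cx3cl1. Of these, 9 have a row among the 22711 genes of the table, and Cxcl11 was not analysed here. RNA was sequenced from 12 mouse libraries in 4 groups of 3. All mice carried the transgenes RIP-rtTA and TetO-VEGF-A, in which the insulin promoter places a doxycycline-dependent activator in beta cells and doxycycline (Dox) then switches on VEGF-A, so the controls carry both transgenes too. The groups were whole islets with no Dox, whole islets after 1 week of Dox, and 2 sorted fractions of dispersed islets after 1 week of Dox: CD11b+ macrophages and CD31+ endothelial cells. Sorted cells without Dox were not analysed here, so the effect of Dox was compared in whole islets alone. Whether a group's libraries stem from different animals, and whether animals were pooled, is not in the labels, so p-values measure the spread between these samples, which may be technical.

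CXC chemokines are named for a pair of cysteines parted by another residue, and CX3CL1, or fractalkine, for a wider spacing. Cxcl1, Cxcl2 and Cxcl5 encode ligands of CXCR2 that attract neutrophils. Cxcl9, Cxcl10 and Cxcl11 encode interferon-inducible ligands of CXCR3 on activated T and NK cells. CXCL16 and CX3CL1 are made as membrane proteins that hold leukocytes by CXCR6 and CX3CR1 and are shed by ADAM proteases. CXCL12 is a constitutive ligand of CXCR4 and ACKR3 made by stromal and endothelial cells, and CXCL14 is a constitutive epithelial chemokine. In pancreatic islets, macrophages and vessels lie beside the endocrine cells, and these ligands are known for recruiting leukocytes in inflammation and in autoimmune diabetes.

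Values are the authors' normalized signal, a linear value with a floor of 1, and each library's signal summed to between 1.76e+07 and 2.52e+07. The sources used here do not give read depth, and values therefore carry no counting interval. For the sorted cell types, 10 macrophage markers summed to 351947 to 373767 in the macrophage libraries and 2864 to 4020.1 in the endothelial ones, and 10 endothelial markers to 259572 to 288641 in the endothelial libraries and 2022 to 2818 in the macrophage ones. None of these 20 markers was at the floor in all libraries of a group. The mouse Vegfa gene had a signal of 3967 ± 637 without Dox and 2027 ± 422 with Dox (SD, n = 3; log2 difference -0.98, SE 0.30, adjusted p = 0.0853 in limma), and how much of the transgene the authors' gene model counts is not given in the sources used here. Deviations from the group mean followed transcript GC content in No Dox replicate 2 and Dox replicate 1 (Spearman 0.64 and 0.57 across 15082 genes, which are not independent replicates), against -0.33 to -0.44 in the other 4 islet libraries. Islet results of Cxcr4, Cx3cr1, Cxcr7, Pf4, Mmp12 and Mmp14 are given without both libraries. In that fit none of the tested chemokine genes was called or changed sign. Acinar markers summed to 6874 to 432800 in macrophage and 301 to 124740 in endothelial libraries, so the carry-over of exocrine RNA varied widely between libraries of a fraction.

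The neutrophil attractants Cxcl1 and Cxcl2 were highest in the CD11b+ macrophage libraries. That fraction also carried part of the dendritic cell markers. The 8 listed summed to 18826 to 24219 there, with Itgax the highest, against 9877 to 10464 in endothelial cells, where Zbtb46 was the highest. Against Dox islets 5 of the 8 were called higher and 2 lower (background 21.3% and 31.4%). Lower were Clec9a, at 583 against 1474 in Dox islets, and Zbtb46, at 1730 against 3461. In the macrophage libraries 10 neutrophil markers summed to 3697 to 4487, with Csf3r the highest, against 105 to 292 in the other groups. Csf3r alone averaged 2693 there and S100a9 421, while Ly6g averaged 1.21 and Camp 3.69. Ltf averaged 20.9, against 28.5 in endothelial cells. Of 8 neutrophil markers tested against Dox islets, 5 were called higher and 0 lower (background 21.3% and 31.4%). S100a8, S100a9, Mpo and Retnlg were below the filter level of 15.5 in every Dox library. They were tested through the macrophage libraries alone, so the count is not independent of the filter. The part of dendritic cells and neutrophils in the ligand levels of the fraction was not tested. Cxcl1 (ENSMUSG00000029380, mm9 chr5:91320267-91322141, plus strand) had a signal of 2493, 2408 and 2329.6 in the macrophage libraries, 139, 134 and 171 in Dox islets, 90.3, 97.6 and 91.5 in endothelial cells and 17.3, 76.3 and 46.3 in No Dox islets. Its 4 groups did not overlap from one to the next, in the order macrophages, Dox islets, endothelial cells and No Dox islets. Cxcl2 (ENSMUSG00000058427, chr5:91332897-91334935, plus strand) reached 39494, 43858 and 39889 in macrophages, against 252, 171 and 102 in Dox islets, 77.1, 109.7 and 34.6 in No Dox islets and 32.2, 52.5 and 70.0 in endothelial cells. Below macrophages, each of these groups overlapped the next. The coding sequences of Cxcl2 and Cxcl3 are 89.8% identical with a shared run of 98 bases, and the labels do not say how reads were divided between such copies. The split of signal between these genes is therefore uncertain. Cxcl3 stood at 145, 85.1 and 38.0 in macrophages and at the floor in all 3 endothelial libraries. Cxcl1 and Cxcl2 are 75.6% identical with a longest shared run of 21 bases. Cxcl5 (ENSMUSG00000029371, chr5:91188325-91190651, plus strand) lay between 1 and 5.50 in all 12 libraries and was not tested in any comparison.

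The interferon-inducible ligands Cxcl9 and Cxcl10 were highest in macrophages as well, with a smaller difference from the other groups for Cxcl9 than for Cxcl10. Cxcl9 (ENSMUSG00000029417, chr5:92750357-92757105, minus strand) had a signal of 2906, 4901 and 2454 in macrophages, 249, 685 and 396 in Dox islets, 159, 248 and 109 in endothelial cells and 77.1, 22.7 and 254 in No Dox islets. The highest No Dox library thus lay above the lowest Dox library and above all 3 endothelial libraries. Cxcl10 (ENSMUSG00000034855, chr5:92775664-92777915, minus strand) stood at 12667, 17850.3 and 19948 in macrophages, 262, 502 and 219 in Dox islets, 195, 342 and 163 in endothelial cells and 43.7, 49.4 and 149.6 in No Dox islets. Dox islets and endothelial cells overlapped, and the 3 No Dox libraries lay below both.

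The membrane-anchored ligands parted: Cxcl16 was highest in macrophages, and Cx3cl1 in endothelial cells, with islets next. Cxcl16 (ENSMUSG00000018920, chr11:70267485-70273486, minus strand) had a signal of 12890.2, 12145 and 12174 in macrophages, 742, 657 and 510.1 in Dox islets, 331, 365 and 229 in No Dox islets and 141, 79.8 and 51.6 in endothelial cells, with no overlap between any neighbouring groups in that order. Cx3cl1 (ENSMUSG00000031778, chr8:97295909-97306323, plus strand) stood at 507, 548 and 517 in endothelial cells, 452, 200.5 and 326 in Dox islets, 173, 492 and 195 in No Dox islets and 71.4, 45.9 and 29.0 in macrophages. Its islet groups overlapped, and the macrophage libraries lay below all others. Its highest No Dox and highest Dox values fell in replicate 2 and replicate 1, the libraries whose deviations followed GC content, and its transcript has 57.1% GC, above 87.0% of genes with a value. The part of GC content in this pattern was not tested.

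The constitutive ligand Cxcl12 was lowest in macrophages, and Cxcl14 was close to the floor. Cxcl12 (ENSMUSG00000061353, chr6:117118553-117131385, plus strand) had a signal of 985, 937 and 749 in endothelial cells, 686, 836 and 494 in No Dox islets, 679, 650 and 649 in Dox islets and 31.1, 8.25 and 109 in macrophages. The first 3 of these groups overlapped in turn, and the macrophage libraries, which spread over the widest ratio, lay below all of them. Cxcl14 (ENSMUSG00000021508, chr13:56390008-56397912, minus strand) stood at 65.4, 28.3 and 1 in macrophages, 9.12, 21.2 and 8.05 in Dox islets, 3.94, 5.68 and 1 in No Dox islets and at the floor in all 3 endothelial libraries. With macrophage replicate 3 at the floor, its macrophage level rested on the other two libraries.

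**Figure D1:**
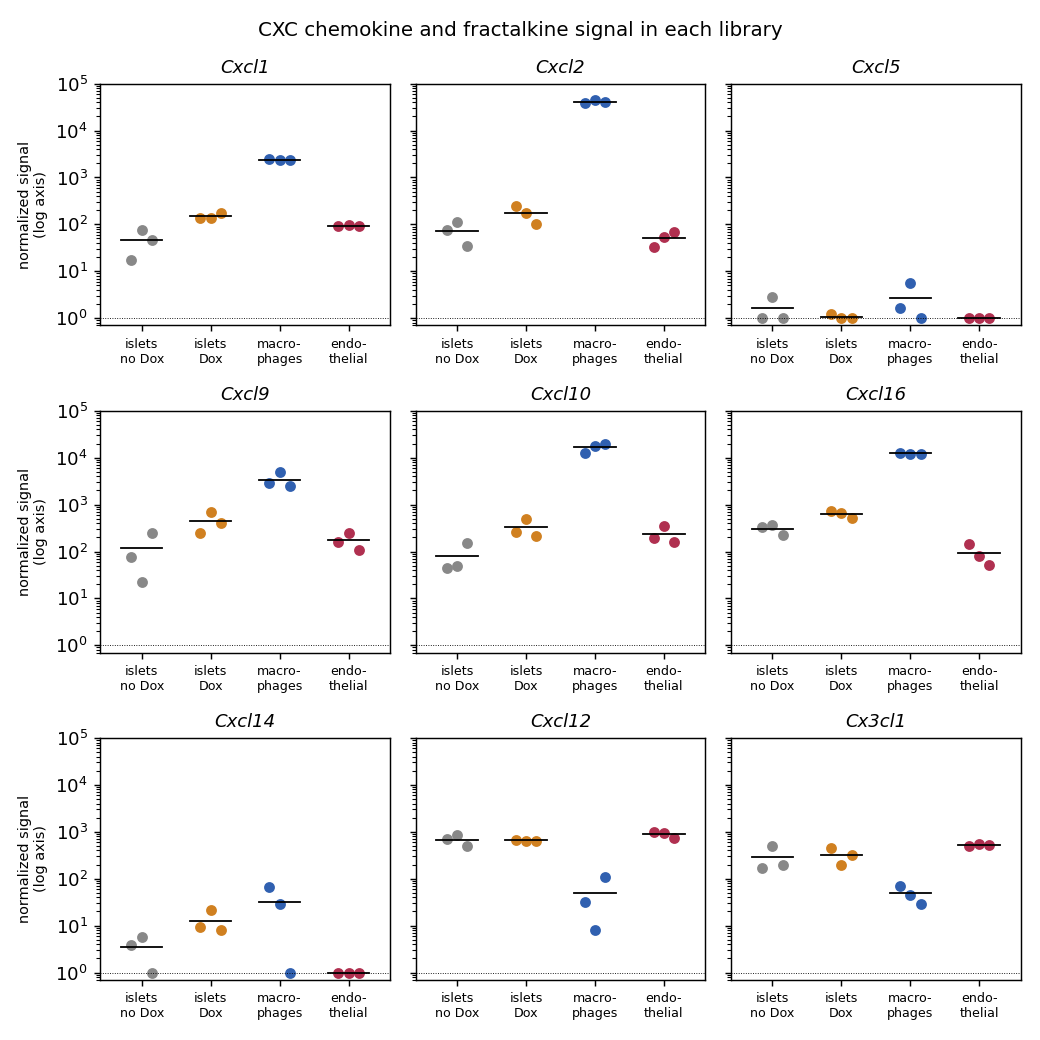
Normalized signal (log axis, floor of 1 dotted) of the 9 chemokine genes in each of the 12 libraries, as points, with the group mean as a bar. Cxcl1, Cxcl2, Cxcl9, Cxcl10 and Cxcl16 peak in the 3 macrophage libraries, where Cxcl2 reaches 39494 to 43858, while Cxcl12 and Cx3cl1 are lowest there.

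Levels of different genes are set side by side per kilobase of exon, which takes the deposited signal as not yet divided by length. Exon length covers every annotated exon of a gene, used or not, with 8176 bases for Cxcl12 and 1520 for Cxcl10. Undivided, Cxcl12 had the highest mean of the 9 in endothelial cells (890) and in Dox islets (659), so its place per kilobase depends on this length. In each library 99.7 to 100% of low values, whatever the gene, lay within 0.1 step of multiples of 1 common step. On this scale Cxcl2 was the most abundant of the 9 in macrophages at 22448 ± 1319 signal per kb (SD, n = 3). Cxcl10 followed with 11067 ± 2466, Cxcl16 with 4106 ± 140, Cxcl1 with 2529 ± 86.0 and Cxcl9 with 1177 ± 448 (SD, n = 3). Per kilobase Cxcl14, Cx3cl1 and Cxcl12 held 17.3 ± 17.7, 13.1 ± 5.75 and 6.04 ± 6.45 in macrophages, levels that differed from each other by less than the largest of their SDs. In endothelial cells the levels lay within a narrower range, from 154 ± 62.8 per kb for Cxcl10, 141 ± 5.81 for Cx3cl1, 109 ± 15.2 for Cxcl12 and 97.7 ± 4.11 for Cxcl1 down to 59.3 ± 24.3 for Cxcl9, 30.1 ± 15.2 for Cxcl16 and 28.2 ± 10.3 for Cxcl2 (SD, n = 3). Cxcl2 was thus the first of these 7 genes in macrophages and the last in endothelial cells. Cx3cl1, Cxcl12 and Cxcl1 lay within the SD of Cxcl10 from its endothelial mean. In Dox islets the same 7 genes ran from 216 ± 100.4 per kb for Cxcl10 and 211 ± 38.8 for Cxcl16 to 80.7 ± 2.08 for Cxcl12 (SD, n = 3).

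The promoters of 4 of the 5 genes that were highest in macrophages are shown because these genes differed together between the fractions. They are the 250 bases before the annotated start, from RefSeq on build GRCm38.p6, which is not the mm9 build of the gene coordinates: Cxcl1 at chr5:90890995-90891244 and Cxcl2 at chr5:90903649-90903898 on the plus strand, and Cxcl10 at chr5:92348890-92349139 and Cxcl9 at chr5:92328080-92328329 on the minus strand. Each is written 5′ to 3′ along its gene. Capitals mark matches on either strand to the NF-kB consensus and, in Cxcl10, also to the interferon-stimulated response element (ISRE), searched as GAAA repeated after a gap of 2 bases.
Cxcl1: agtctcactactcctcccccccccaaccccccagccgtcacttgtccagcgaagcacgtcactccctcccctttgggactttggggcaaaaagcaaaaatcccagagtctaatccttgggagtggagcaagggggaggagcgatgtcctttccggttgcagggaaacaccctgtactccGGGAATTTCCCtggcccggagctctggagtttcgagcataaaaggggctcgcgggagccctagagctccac
Cxcl2: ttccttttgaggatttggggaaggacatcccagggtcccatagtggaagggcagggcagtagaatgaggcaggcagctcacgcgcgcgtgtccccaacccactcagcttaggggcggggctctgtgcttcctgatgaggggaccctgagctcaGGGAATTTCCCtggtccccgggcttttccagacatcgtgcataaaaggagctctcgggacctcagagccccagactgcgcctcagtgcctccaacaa
Cxcl10: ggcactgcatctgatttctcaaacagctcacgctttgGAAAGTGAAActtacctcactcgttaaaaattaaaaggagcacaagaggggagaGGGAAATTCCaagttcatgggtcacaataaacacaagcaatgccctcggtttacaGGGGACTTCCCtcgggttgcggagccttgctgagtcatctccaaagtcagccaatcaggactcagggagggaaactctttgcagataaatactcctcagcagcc
Cxcl9: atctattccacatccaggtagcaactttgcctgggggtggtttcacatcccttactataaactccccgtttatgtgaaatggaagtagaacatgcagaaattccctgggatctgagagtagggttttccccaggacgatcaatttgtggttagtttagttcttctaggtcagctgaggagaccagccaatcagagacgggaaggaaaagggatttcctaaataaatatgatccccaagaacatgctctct
In Cxcl1 and Cxcl2 the capitals hold the same bases, which match the NF-kB consensus on both strands in frames that overlap, first 71 and 97 bases before the start. The Cxcl10 promoter has 3 NF-kB matches, of which 2 overlap (159, 104 and 103 bases before the start), and an ISRE match 213 bases before the start. Cxcl9, which was also higher in macrophages, has no match to either motif or to the interferon-gamma activated site TTCNNNGAA in this window, which says only that these letters are not there. Of all 32851 promoters of 300 bases searched in the same way, 8.46% held the NF-kB consensus, 3.44% the ISRE and 8.30% the interferon-gamma activated site. In all, 7 members had a promoter in the table. The windows of Cxcl12 and Cx3cl1, the genes lower in macrophages, held none of these motifs, and that of Cxcl14 held an ISRE and an interferon-gamma activated site. The motifs were chosen with the values known, and a match is a description of letters, not evidence of binding.

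Setting Dox islets against No Dox islets asks whether chemokine transcripts differed after a week of Dox, given to switch on the VEGF-A transgene. The interferon-inducible pair and the CXCR2 ligands had the highest differences, but 0 of the 7 tested genes were called by limma at an adjusted p under 0.05. Of all 14443 genes tested, 5.74% were called (4.33% higher and 1.41% lower), and 4 of the 7 had an unadjusted p under 0.05. The log2 difference, Dox minus No Dox, was 2.39 for Cxcl9 (SE 0.79, adjusted p = 0.111), 2.14 for Cxcl10 (SE 0.59, adjusted p = 0.0665) and 1.87 for Cxcl1 (SE 0.63, adjusted p = 0.117). Cxcl16 stood at 1.05 (SE 0.36, adjusted p = 0.123) and Cxcl2 at 1.29 (SE 0.60, adjusted p = 0.256). The intervals of the 4 genes with an unadjusted p under 0.05 were 0.63 to 4.15 for Cxcl9, 0.82 to 3.47 for Cxcl10, 0.47 to 3.27 for Cxcl1 and 0.25 to 1.86 for Cxcl16. In Cxcl1, Cxcl10 and Cxcl16 all 3 Dox libraries lay above all 3 No Dox libraries, as in 15.7% of all genes tested, while the reverse, seen in 9.64% of genes, was seen in 0 of the 7.

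Cxcl12 and Cx3cl1 showed no difference larger than the spread between libraries. Cxcl12 had a log2 difference of 0.01 (95% interval -0.72 to 0.74, adjusted p = 0.996) and Cx3cl1 one of 0.28 (-0.87 to 1.42, adjusted p = 0.843), intervals that leave room for changes in either direction. All 7 values lay above 0, against 56.4% of all genes tested, with a median of 1.29 against 0.11. Cxcl12 lay below 0 after quantile normalization (-0.14) and after median ratio scaling (-0.10), which moved the median of all genes from 0.11 to -0.03 and to -0.0028. Cxcl14, which did not pass the filter, averaged 12.8 ± 7.30 with Dox and 3.54 ± 2.37 without (SD, n = 3), and these groups did not overlap. Cxcl1, Cxcl9 and Cxcl10 were called when all 4 groups were fitted together (adjusted p = 0.0174, 0.0422 and 0.0121), which leaves the differences as they are. Without No Dox replicate 3, the No Dox library with the highest value of both, Cxcl9 was called at 3.24 and Cxcl10 at 2.70 (adjusted p = 0.0323 and 0.0321). Without No Dox replicate 2, Cxcl9 stood at 1.53 and Cxcl1 at 2.33, and Cxcl1 at 1.29 without No Dox replicate 1, none of which was called.

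**Figure D2:**
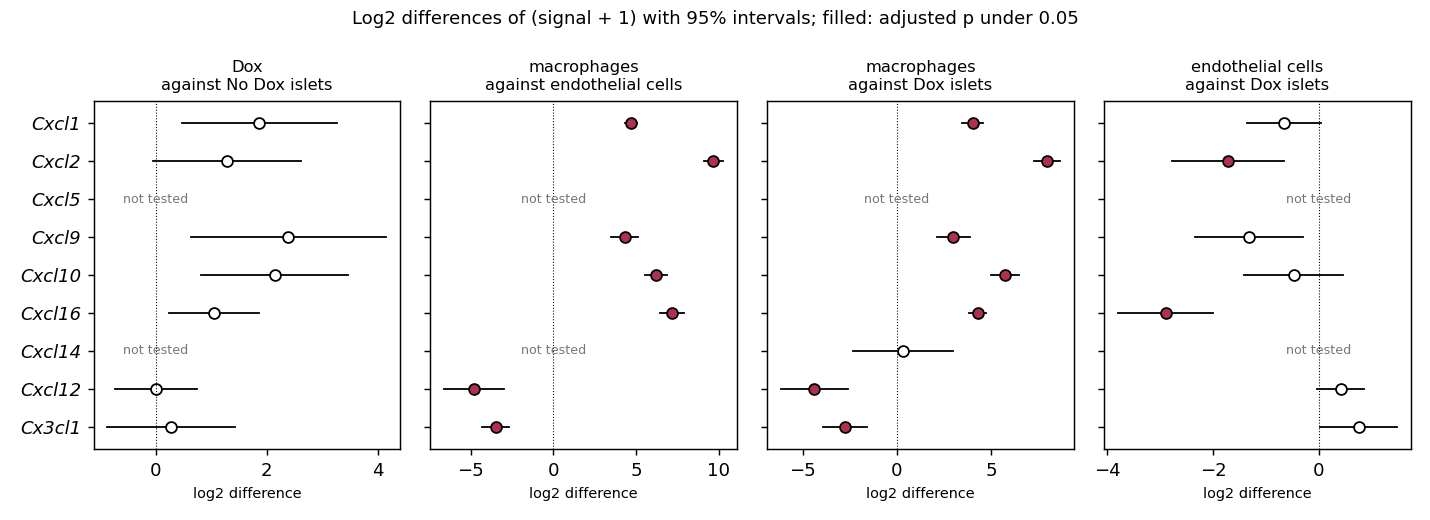
Log2 differences of (signal + 1) for the 9 chemokine genes in the 4 comparisons, with 95% intervals from limma; filled points have an adjusted p under 0.05 and the horizontal scales differ between panels. In islets 0 of 7 points are filled, and between the fractions 7 of 7 are, with Cxcl12 at -4.79 and Cx3cl1 at -3.49 on the endothelial side.

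Markers of several cell types moved with the islet values. In whole islets, more cells of a type and more RNA per cell cannot be told apart. The mean signal of the 10 macrophage markers was 2.39 to 4.69 times as high with Dox as without (median 3.38), and that of the 10 endothelial markers 1.96 to 17.4 times (median 2.93). The same ratio was 4.05 for Cxcl10, 3.75 for Cxcl9, 3.17 for Cxcl1, 2.37 for Cxcl2 and 2.06 for Cxcl16, and 1.14 for Cx3cl1 and 0.98 for Cxcl12. Beta cell markers were lower with Dox (6 of 10 called lower, against 1.41% of all genes tested, median log2 difference -1.67). Pericyte and smooth muscle markers (4 of 10 called higher, median 1.71) and fibroblast markers (4 of 10, median 1.20) were higher, against 4.33% of all genes tested. Acinar markers had a median of 1.40 with 0 of 10 called. Cxcl12 and Cx3cl1, the ligands highest in endothelial cells, had ratios below those of all 10 endothelial markers. The part of cell numbers in these values was not tested. The headers give library numbers in separate series, of which one held a No Dox and a Dox library and another 2 of each. The Dox difference within these was 1.68 and 2.75 for Cxcl9, 2.56 and 1.94 for Cxcl10, 2.93 and 1.33 for Cxcl1, 1.70 and 1.08 for Cxcl2 and 1.16 and 1.00 for Cxcl16, and Cx3cl1 changed sign (1.38 and -0.28).

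The comparison of the sorted fractions asks which of these ligands part macrophages from endothelial cells after Dox. All 7 tested genes were called, against 59.1% of the 13726 genes tested. Cxcl1, Cxcl2, Cxcl9, Cxcl10 and Cxcl16 were higher in macrophages (background 27.7%), and Cxcl12 and Cx3cl1 were higher in endothelial cells (background 31.5%). The log2 difference, macrophages minus endothelial cells, was 9.68 for Cxcl2 (SE 0.25, adjusted p = 5.65e-08), 7.20 for Cxcl16 (SE 0.32, adjusted p = 5.07e-07) and 6.21 for Cxcl10 (SE 0.28, adjusted p = 5.92e-07). Cxcl1 and Cxcl9 differed by 4.68 (SE 0.15, adjusted p = 1.34e-07) and 4.32 (SE 0.35, adjusted p = 1.51e-05). On the endothelial side stood Cxcl12 with -4.79 (SE 0.78, adjusted p = 0.000932) and Cx3cl1 with -3.49 (SE 0.36, adjusted p = 6.04e-05). In the 5 genes all 3 macrophage libraries lay above all 3 endothelial ones (30.7% of genes tested), and in the other two all 3 lay below (35.8%). The same 7 genes were called under every alternative run. Among the libraries of the header series that held both fractions (2 of each), the difference ran from 4.24 for Cxcl9 to 9.95 for Cxcl2 in the 5 genes and was -5.80 for Cxcl12 and -3.18 for Cx3cl1. The tested genes reached the filter level of 15.5 in 5 or 6 of the 6 libraries. Cxcl14, with 2 such libraries, was not tested.

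Traces of the other fraction can be read from the markers. In endothelial cells, 9 of the 10 macrophage markers held 0.0538 to 0.849% of their macrophage mean, and Mertk, an efferocytosis receptor, held 32.2%. Cxcl9 held 5.04%, Cxcl1 3.86% and Cxcl10 1.39%, above 9 of the 10 markers, Cxcl16 held 0.733%, above 8, and Cxcl2 0.126%, above 7. In macrophages, the 10 endothelial markers held 0.363 to 2.79% of their endothelial mean (median 0.707%), against 9.31% for Cx3cl1 and 5.55% for Cxcl12, which were above all 10. Macrophage replicate 3 held the highest Cxcl12 (109) and the lowest Cx3cl1 (29.0) of that fraction. The listed pericyte and fibroblast markers were also highest there, except Kcnj8, Tagln, Pdgfra and Fbln1. Rgs5 stood at 3051, 3498 and 12399 and Col3a1 at 713, 696 and 2052 in the macrophage libraries. The part of carry-over in these levels was not tested beyond these values.

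Macrophages were then set against whole islets of the same treatment, which asks how far each transcript is enriched in them. This comparison and the next share the Dox islets with the Dox comparison. Of 8 genes tested, 7 were called, against 52.7% of 14479 genes, with 5 higher (background 21.3%) and 2 lower (31.4%) in macrophages. The log2 difference, macrophages minus Dox islets, was 7.96 for Cxcl2 (SE 0.30, adjusted p = 7.77e-07), 5.75 for Cxcl10 (SE 0.32, adjusted p = 1.85e-06) and 4.30 for Cxcl16 (SE 0.20, adjusted p = 9.11e-07). Cxcl1 stood at 4.02 (SE 0.24, adjusted p = 2.46e-06) and Cxcl9 at 3.00 (SE 0.39, adjusted p = 0.000194). Lower in macrophages were Cxcl12 with -4.37 (SE 0.78, adjusted p = 0.00126) and Cx3cl1 with -2.73 (SE 0.52, adjusted p = 0.00173). The 3 macrophage libraries lay above the 3 Dox islet libraries in the 5 genes (25% of genes tested) and below them in the other two (36%), and 6 of the 8 values were above 0, against 44.6% of genes tested. Within the header series that held both groups, Cxcl12 stood at -5.30 and -2.57 and Cxcl9 at 3.92 and 2.23, and the remaining called genes kept their sign. Cxcl14 had a log2 difference of 0.31 (95% interval -2.35 to 2.97, adjusted p = 0.840), with 3 of 6 libraries at the filter level. The same 7 genes were called under every alternative run.

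Dox islets held lower shares of the macrophage level for Cxcl2 and Cxcl10 than for any of the macrophage markers. Dox islets held 3.43 to 26.6% of the macrophage mean of the 10 markers (median 5.21%). They held 0.426% for Cxcl2 and 1.95% for Cxcl10, below all 10 markers, 5.13% for Cxcl16, 6.14% for Cxcl1 and 13.0% for Cxcl9, which was above 9 of the 10. These shares are a description without a test. Beside them, all 12 tested immediate early genes, which respond to handling of cells within minutes, were higher in macrophages than in Dox islets, with a median log2 difference of 2.75 against -0.20 over all genes tested. All 12 were called, against 21.3% of genes tested. Dispersal and sorting cannot be told apart from cell type in this comparison.

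**Figure D3:**
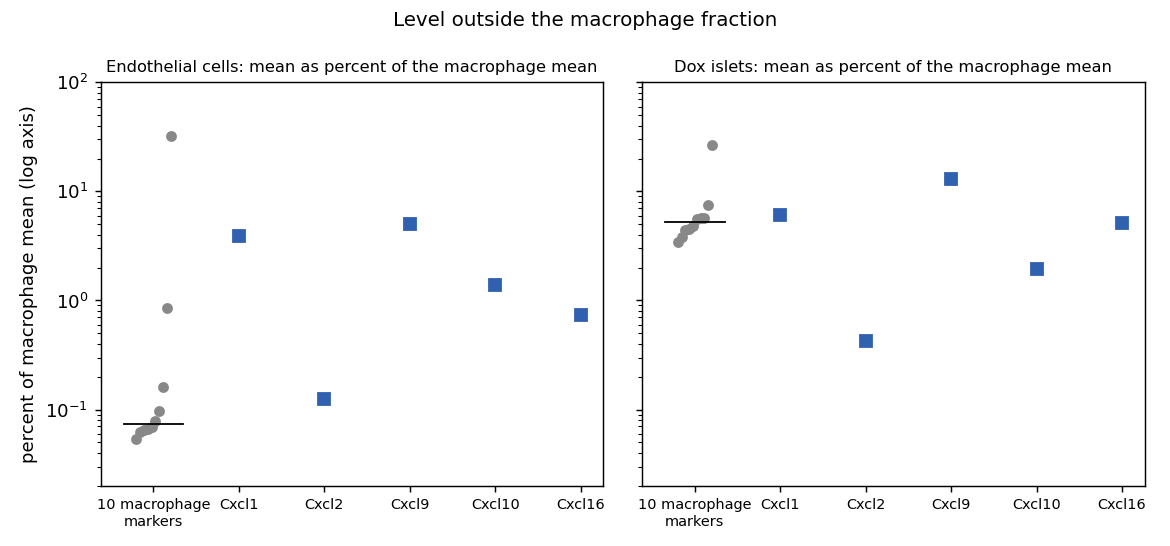
Mean signal in endothelial cells (left) and Dox islets (right) as a percent of the macrophage mean, on a log axis, for 10 macrophage markers (grey points, median as a bar) and the 5 chemokine genes highest in macrophages (squares). In Dox islets Cxcl2 (0.426%) and Cxcl10 (1.95%) lie below the lowest marker (3.43%), and in endothelial cells Cxcl9, Cxcl1 and Cxcl10 (5.04, 3.86 and 1.39%) lie above all markers but Mertk.

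Endothelial cells against Dox islets gave fewer calls. Of 7 genes tested, 2 were called, against 33.1% of 14218 genes. Both were lower in endothelial cells (background 21.6%), Cxcl16 with a log2 difference of -2.90 (SE 0.39, adjusted p = 0.000633) and Cxcl2 with -1.72 (SE 0.46, adjusted p = 0.0214). On the deposited scale none was called higher (background 11.5%), and 4 genes had an unadjusted p under 0.05. Cxcl9 stood at -1.32 (adjusted p = 0.0511), Cxcl1 at -0.66 (0.136) and Cxcl10 at -0.47 (0.415), and Cx3cl1 at 0.76 (0.0998) and Cxcl12 at 0.42 (0.131), the 2 values above 0 (50.2% of genes tested). All 3 endothelial libraries lay above the Dox islets in Cx3cl1 and Cxcl12 (21.2% of genes tested) and below them in Cxcl1, Cxcl2, Cxcl9 and Cxcl16 (27% of genes tested). In the header series that held both groups the differences were -2.79 for Cxcl16 and -2.58 for Cxcl2, and -0.32 for Cxcl9. The call for Cxcl2 was lost with no filter on low values (adjusted p = 0.0794), after quantile normalization (0.193), without endothelial replicate 1 or 2 (0.0872 and 0.0598) and without Dox replicate 2 (0.0700). Without Dox replicate 1, Cx3cl1 was called higher (1.03, adjusted p = 0.00742) and Cxcl9 lower (-1.67, adjusted p = 0.00608). Quantile normalization, which moved the median of all genes from 0.00 to 0.28, turned Cxcl1 to 0.11 and called Cx3cl1 (1.05, adjusted p = 0.0275) and Cxcl12 (0.59, adjusted p = 0.0350) higher in endothelial cells.

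Cxcl12 and Cx3cl1 were held by whole islets at higher shares of the endothelial level than endothelial markers were. The Dox islets had 74.1% of the endothelial mean for Cxcl12 and 62.3% for Cx3cl1, against 28.4 to 46.6% for the 10 endothelial markers (median 38.6%). Other cell types that endothelial sorting leaves behind were well represented in Dox islets: 10 pericyte and smooth muscle markers summed to 216838 to 443051 there against 18522 to 66976 in endothelial cells, and 10 fibroblast markers to 55939 to 131643 against 1452 to 4482. The part of these cells in the islet level of either ligand was not tested.

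Receptor genes differed between the fractions in both directions. Cx3cr1, the fractalkine receptor of monocytes and macrophages, had a signal of 9525, 9752 and 11833 in macrophages and 2.05, 4.12 and 56.3 in endothelial cells, a log2 difference of 10.06 (SE 0.95, adjusted p = 3.90e-05). Its ligand gene Cx3cl1 was higher in endothelial cells. Cxcr7 (Ackr3), the atypical receptor that takes up CXCL12, went the other way, with 45.8, 27.5 and 42.3 in macrophages and 2455, 2464 and 2281 in endothelial cells (-5.96, SE 0.24, adjusted p = 3.57e-07). Cxcr4, the signalling receptor of CXCL12, was high in both, at 4047, 3937 and 4155 in macrophages and 2337, 2201 and 2149 in endothelial cells (0.86, SE 0.09, adjusted p = 6.93e-05).

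Of the 9 receptor genes, 7 were tested between the fractions and all were called, 5 higher and 2 lower in macrophages, against 27.7% and 31.5% of all genes tested. Cxcr2, the receptor of the neutrophil attractants, stood at 245, 310.1 and 441 in macrophages and Cxcr3, that of CXCL9 and CXCL10, at 91.6, 85.3 and 139. Both were at the floor in all 3 endothelial libraries. They passed the filter through the macrophage libraries alone, so their calls are not independent of the filter. Beside the neutrophil markers given above, T, NK and B cell markers summed to 762 to 1501 in the macrophage libraries, with Cd4 the highest, against 29.1 to 409 in the other groups. The part of these cells in the receptor signal was not tested. Cxcr6, the receptor of CXCL16, averaged 159 in macrophages and 67.5 in endothelial cells (1.25, SE 0.35, adjusted p = 0.0151), a call lost without macrophage replicate 1 or endothelial replicate 2 (highest adjusted p = 0.0617). Darc (Ackr1), a decoy receptor of venules and red cells, was lower in macrophages (9.09 against 48.6; -2.66, SE 0.84, adjusted p = 0.0262), a call lost without endothelial replicate 1 or 2 (highest adjusted p = 0.110). Cxcr1 lay between 1 and 5.50 in every library and Cxcr5, the B cell receptor of CXCL13, between 2.66 and 25.0, and neither was tested.

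In whole islets, 3 of 5 tested receptor genes rose with Dox and 0 fell, against 4.33% and 1.41% of all genes tested. Cxcr4 went from 193, 209 and 182 to 1624, 663 and 640.2 (log2 difference 2.18, SE 0.43, adjusted p = 0.0228). Cx3cr1 went from 218, 189 and 196 to 446, 840 and 819 (1.74, SE 0.39, adjusted p = 0.0326), and Cxcr7 from 701, 633 and 717 to 2242, 1688 and 1499 (1.38, SE 0.30, adjusted p = 0.0300). In each, every Dox library lay above every No Dox library, as in 15.7% of all genes tested. The mean with Dox was 3.49 times that without for Cx3cr1, against 2.39 to 4.69 for the macrophage markers. It was 2.65 times for Cxcr7, against 1.96 to 17.4 for the endothelial markers, and 5.01 times for Cxcr4. The part of cell numbers in these values was not tested. Cxcr6 (-0.20, adjusted p = 0.911) and Darc (0.02, adjusted p = 0.990) were not called. Each of the 3 calls held in only 2 of the 6 fits that left out a library, with a highest adjusted p of 0.0978 for Cxcr4, 0.189 for Cx3cr1 and 0.144 for Cxcr7, all without Dox replicate 2. Without both libraries that followed GC content, Cx3cr1 was called at 2.00 (adjusted p = 0.0463), and Cxcr4 (1.79, adjusted p = 0.0619) and Cxcr7 (1.17, adjusted p = 0.10) were not.

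Against Dox islets, macrophages had 5 receptor genes higher and 2 lower of 7 tested, against 21.3% and 31.4% of all genes tested. Cxcr2 led with 5.21 (SE 0.65, adjusted p = 0.000139), followed by Cx3cr1 (3.93), Cxcr3 (3.70), Cxcr4 (2.19) and Cxcr6 (1.36, adjusted p = 0.0478). Cxcr2 and Cxcr3 passed the filter through the macrophage libraries alone here too, so their calls are not independent of it. Cxcr7 (-5.53) and Darc (-2.65, adjusted p = 0.0247) were lower. The call for Cxcr6 held in 1 of 6 and that for Darc in 3 of 6 fits that left out a library. Endothelial cells had Cxcr4 higher (1.33, SE 0.34, adjusted p = 0.0170) and Cx3cr1 lower (-6.13, SE 0.98, adjusted p = 0.00151) than Dox islets, of 5 tested. The shares of all genes tested were 11.5% higher and 21.6% lower. The Cxcr4 call was lost without endothelial replicate 1 or without Dox replicate 2 or 3 (highest adjusted p = 0.0912).

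**Figure D4:**
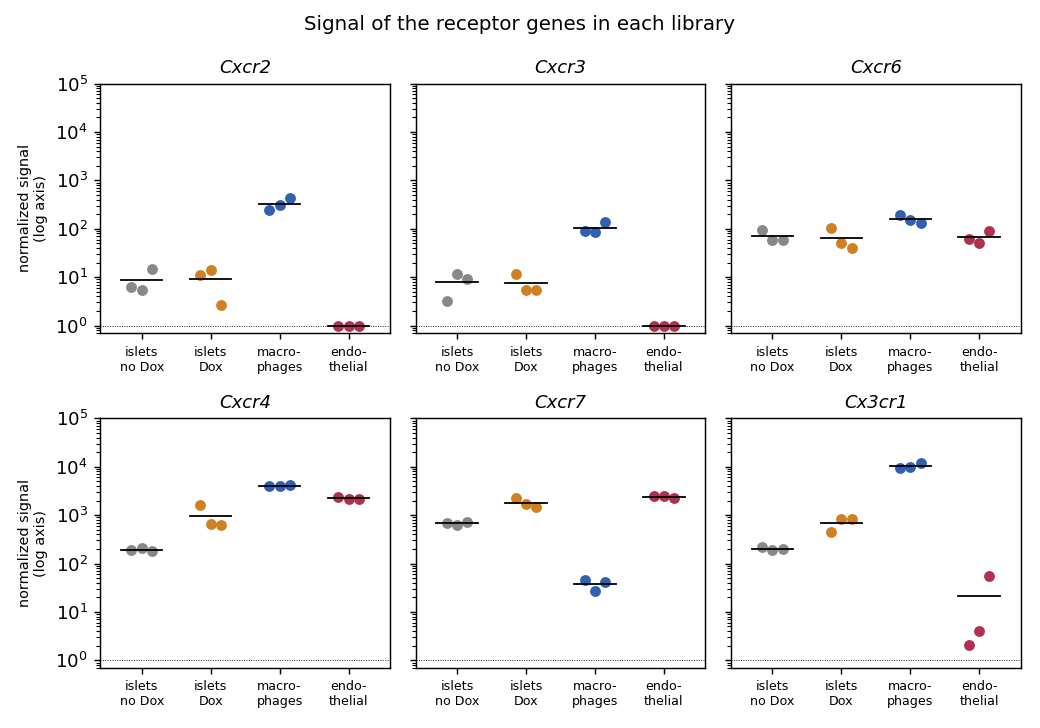
Normalized signal (log axis, floor of 1 dotted) of 6 receptor genes in each of the 12 libraries, with the group mean as a bar. Cx3cr1 runs from 9525 to 11833 in macrophages and from 2.05 to 56.3 in endothelial cells, Cxcr7 shows the reverse order, and Cxcr2 and Cxcr3 are at the floor in all 3 endothelial libraries.

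Among 6 other CXC ligands of mouse, Pf4 (Cxcl4), the platelet factor that macrophages also make, was called in every comparison. It went from 4.73, 14.2 and 1 in No Dox islets to 158, 77.7 and 70.3 in Dox islets (log2 difference 4.11, SE 0.89, adjusted p = 0.0303), the only one of 4 tested that rose, with 0 lower. Every No Dox value lay below the filter level. Pf4 was thus tested through the Dox libraries alone, and this call is not independent of the filter. Pf4 stood at 3141, 2570.0 and 1890 in macrophages and 2.05, 1.51 and 6.25 in endothelial cells (9.35, SE 0.46, adjusted p = 9.03e-07). Its endothelial values lay below the filter level too. Without No Dox replicate 1 the islet call was lost (adjusted p = 0.0743). Without any 1 Dox library, or without No Dox replicate 2 and Dox replicate 1, Pf4 no longer passed the filter. The call held in the other 2 fits that left out a library. Between the fractions, 3 of 5 tested were higher in macrophages, namely Pf4, Cxcl3 (5.30, adjusted p = 6.97e-05, against a group at the floor) and Cxcl17 (0.98, adjusted p = 0.0422), and 0 were lower. The Cxcl17 call was lost on leaving out any 1 of the 6 libraries (adjusted p = 0.0501 to 0.121). Macrophages held 4 of 5 higher and 1 lower (Ppbp, -2.16, adjusted p = 0.0273) than Dox islets, and endothelial cells 1 higher (Cxcl13, the B cell attractant, 1.23, adjusted p = 0.0343) and 2 lower of 4. The call for Ppbp was lost without any 1 Dox library (highest adjusted p = 0.0886), and that for Cxcl13 in endothelial cells held in 2 of 6 fits that left out a library (highest adjusted p = 0.118). Of all genes tested, 4.33% were called higher and 1.41% lower with Dox, and 27.7% and 31.5% in macrophages against endothelial cells. Against Dox islets, the shares were 21.3% and 31.4% for macrophages and 11.5% and 21.6% for endothelial cells.

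Of 8 proteases and regulators that act on these ligands, 7 were called higher in macrophages than in endothelial cells, against 27.7% of all genes tested. Mmp12, macrophage elastase, led with 10505.5 against 2.38 mean signal (log2 difference 11.62, adjusted p = 1.49e-07). Mmp8, Mmp9 and Mmp12 passed the filter through the macrophage libraries alone, so their calls are not independent of the filter. Adam10, which sheds CXCL16 and CX3CL1, was lower (3860.4 against 6625, log2 difference -0.78, adjusted p = 0.000412). In islets, 2 of 6 tested rose with Dox and 0 fell: Mmp14, a membrane metalloproteinase, from 137 to 1017 (2.84, SE 0.43, adjusted p = 0.0124) and Mmp12 from 313 to 1009 (1.83, SE 0.42, adjusted p = 0.0369). Without both libraries that followed GC content, Mmp14 was called (adjusted p = 0.0432) and Mmp12 was not (0.128). The Mmp14 call was lost without Dox replicate 2 (adjusted p = 0.0921), and that of Mmp12 held in 1 of 6 fits that left out a library. The mean with Dox was 3.23 times that without for Mmp12 and 7.43 times for Mmp14, and 2.39 to 4.69 times for the macrophage markers. It was 1.96 to 17.4 times for endothelial, 1.44 to 12.1 times for pericyte and smooth muscle and 0.80 to 6.35 times for fibroblast markers. The part of cell numbers in these values was not tested. Macrophages held 4 of 8 higher than Dox islets, led by Mmp8 (4.40), with 0 lower. Mmp8 was below the filter level in every Dox library and passed through the macrophage libraries alone. Endothelial cells held 3 of 6 lower than Dox islets, with Mmp12 the lowest (-8.29) and 0 higher. Mmp12 passed that filter through the Dox libraries alone. Over all genes tested, 4.33% were called higher and 1.41% lower with Dox. Against Dox islets these shares were 21.3% and 31.4% in macrophages and 11.5% and 21.6% in endothelial cells.

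The 19 listed genes of interferon signalling, the pathway that induces Cxcl9 and Cxcl10, were mostly higher in macrophages. Over all genes tested, 27.7% were called higher and 31.5% lower in macrophages than in endothelial cells, and 21.3% and 31.4% against Dox islets. For Dox in islets these shares were 4.33% and 1.41%, and for endothelial cells against Dox islets 11.5% and 21.6%. Between the fractions 14 of 18 tested were higher and 0 lower, with Ifnb1, interferon beta, at 1895, 2997 and 3497 in macrophages and 6.05, 1 and 1 in endothelial cells (log2 difference 9.80, adjusted p = 1.83e-06). Against Dox islets 15 of 19 were higher and 0 lower, and Ifnb1 led again (10.35, adjusted p = 8.81e-07). Ifnb1 was below the filter level in every endothelial and every Dox islet library. It was tested through the macrophage libraries alone, so neither of its calls is independent of the filter. In islets, 3 of 16 rose with Dox and 0 fell, all of them receptor subunits: Ifngr2 (1.89, adjusted p = 0.0144), Ifnar2 (1.26, adjusted p = 0.0391) and Ifngr1 (1.19, adjusted p = 0.0367), with a list median of 0.74. The calls of Ifnar2 and Ifngr1 were lost on leaving out any 1 of the 6 libraries, and that of Ifngr2 was lost without Dox replicate 2 or 3 (highest adjusted p = 0.208, 0.206 and 0.113 for Ifngr1, Ifnar2 and Ifngr2). In endothelial cells against Dox islets, 4 of 17 were higher and 0 lower, led by Isg15, a ubiquitin-like interferon target (2.42, adjusted p = 0.0438), a call that held in 1 of 6 fits that left out a library (highest adjusted p = 0.149).

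The 17 genes of TNF, IL-1 and NF-kB signalling, which induces the neutrophil attractants, were also mostly higher in macrophages. Shares called higher and lower over all genes tested were 27.7% and 31.5% between the fractions and 21.3% and 31.4% for macrophages against Dox islets. For endothelial cells against Dox islets they were 11.5% and 21.6%, and with Dox 4.33% and 1.41%. Between the fractions 15 of 17 were higher in macrophages, with Il1b at 27025, 32191 and 26196 against 7.17, 3.01 and 9.38 in endothelial cells (log2 difference 11.99, adjusted p = 7.32e-08). Il1b and Tnf passed the filter there through the macrophage libraries alone, so these calls are not independent of the filter. Il1r1, the IL-1 receptor, was lower (428 against 3120.4, log2 difference -3.01, adjusted p = 0.000155). Against Dox islets 15 were higher, led by Tnf (8.45, adjusted p = 1.99e-06), and Il1r1 was lower (-5.48). With Dox, 0 of 17 were called in islets by limma, and the list median was 0.70 against 0.11 over all genes. Endothelial cells held 5 of 16 higher than Dox islets, of which Relb had the highest difference (1.07, adjusted p = 0.0316, called in 1 of 6 fits that left out a library). They held 2 lower, with Il1b, which passed this filter through the Dox libraries alone, the lowest (-6.83). Immediate early genes stood beside these: 12 of 13 were higher and 1 lower in macrophages than in endothelial cells, 6 were higher and 1 lower of 13 in endothelial cells than in Dox islets, and 0 of 12 were called with Dox. Their part in the ligand levels was not tested.

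For each gene above the filter level in at least 3 libraries, the pair of genes of most similar pattern was found as the smallest root mean square difference of log2(signal + 1), each gene centred on its mean, over the 12 libraries and among 15105 genes. Cxcl16 was closest to Snx20 (0.35) and Ctsh (0.39), Cx3cl1 to Asap3 (0.34) and Synpo (0.36), and Cxcl12 to Id4 and Pcdhb14 (both 0.38). Cxcl1 was nearest Rasgrp4 (0.52) and Ctsb (0.56), and Cxcl9 nearest Serpina3f (0.49) and Lgmn (0.73). The remaining distances were wider, with Cxcl10 at 0.80 from the chemokine gene Ccl5 and 0.81 from Trim30c, Cxcl2 at 0.85 from Slc26a9 and 0.95 from Clec4e, and Cxcl14 at 0.81 from Gm5464 and 1.00 from Mdga1. Ctsh shows how close such a pattern is, with means of 376, 862, 13630 and 115 in No Dox islets, Dox islets, macrophages and endothelial cells, against 309, 636, 12403 and 90.9 for Cxcl16.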

How the data were processed

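Per the labels' protocols, RNA of whole islets or sorted cells was amplified with a NuGEN Ovation kit before library preparation and sequenced on an Illumina HiSeq2500. The authors deposited 1 table of normalized signal for 12 libraries. The submitters' processing notes name TopHat2 2.0 and mm9, with no role; the normalization, counting program and use of strand were not given in the sources used here. Low values lay on library-specific steps (99.7 to 100% of them within 0.1 step), but 31.6 to 53.2% lay on multiples of 50 steps, so whole reads were not recovered and no count model was used. Of the signal values, 30.1% were at the floor of 1.

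The 25 symbols stored as dates were restored by gene ID, and 76 symbols with several entries (0 of them chemokines) kept their entry of highest mean, which left 22711 genes of 22793. Coordinates of 22309 equalled GENCODE M1, which gave exon lengths and GC content.

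Each comparison was fitted to its 6 libraries with limma 3.58.1 (R 4.3.3) on log2(signal + 1) with a variance trend, over genes of at least 15.5 (the 40th percentile) in 3 of the 6 libraries. P-values were adjusted by Benjamini-Hochberg over all genes tested, with a threshold of 0.05. Log2 differences are of (signal + 1), which understates those of low genes. The scripts were tested on simulated data. Coding sequences were aligned with Biopython 1.88.

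The genes and lists were chosen with earlier results of these data known, and 1 gene of the interferon list is not reported here. The rule named all 10 chemokine genes, every receptor, and of each other list the called genes with the highest and lowest difference, or all where 5 or fewer were called. Alternatives were another pseudocount, no filter, other scalings, no variance trend, 1 fit of all groups, a replicate block and leaving out each library; those of list genes were added after the data were seen. For macrophage and endothelial libraries of the same number, deviations from the group mean correlated at 0.23, 0.41 and 0.36, and at -0.25, -0.54 and 0.16 between the islet groups; the labels give numbers only. Printed values are from fits without the block unless it is named, and the block changed no chemokine call between macrophages and endothelial cells.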

Additional observations from a re-analysis of the deposited data

How the results depend on the processing

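Between macrophages and endothelial cells, and between macrophages and Dox islets, 7 chemokine genes were called under every alternative run, the replicate block included. In the Dox comparison the count of 0 became 3 with all 4 groups fitted together (Cxcl1, Cxcl9 and Cxcl10) and 1 with the replicate block (Cxcl9, adjusted p = 0.0463), under which the islet calls of Cx3cr1 (0.0599), Cxcr7 (0.0675), Ifngr1 and Ifnar2 were lost, and it ran from 0 to 2 on leaving out a replicate. In endothelial cells against Dox islets the count of 2 became 1 with no filter (Cxcl16) and 3 with the replicate block (Cxcl9 added, adjusted p = 0.0120), with a pseudocount of 10 (Cxcl9 added, 0.0477), without variance trend (Cxcl1 added, 0.0478) and after quantile normalization (Cx3cl1 and Cxcl12 added, Cxcl2 lost), and it ran from 1 to 4 on leaving out a replicate. The Dox difference of Cxcl12 fell below 0 after quantile normalization (-0.14), with median ratio scaling (-0.10) and without Dox replicate 1 (-0.015) or No Dox replicate 3 (-0.20). On leaving out a replicate it ran from -0.20 to 0.18, and that of Cx3cl1 from -0.0038 (without No Dox replicate 1) to 0.75. Cxcl1 in endothelial cells against Dox islets turned to 0.11 after quantile normalization. The cause was not tested. Of the single-gene alternatives of the chemokines, 356 kept direction and side of the threshold, 14 passed it anew, 5 lost it (all Cxcl2 in endothelial cells against Dox islets) and 6 changed sign. Over all genes, Dox calls numbered 829 (625 higher, 204 lower), 97 with no filter, 301 without variance trend, 1606 with all 4 groups fitted together and 5 to 801 on leaving out a library (5 without Dox replicate 2), and 943 (569 higher, 374 lower) after quantile normalization. That scaling gave 4100 higher and 3881 lower for macrophages against Dox islets (3079 and 4552 as deposited) and 3283 and 2501 for endothelial cells against Dox islets (1635 and 3071). Depth is unknown, so it cannot be said how much of the spread at signals near the floor, as in Cxcl5 and Cxcl14, is counting error.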

Other observations

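Interferon gamma itself, chosen after its values were seen, did not pass the filter in the Dox comparison. Ifng was at the floor in all 3 No Dox libraries and stood at 6.04, 148 and 4.06 in Dox islets, so the high value rested on Dox replicate 2, which also held the highest Cxcl9 (685) and Cxcl10 (502) of the 6 islet libraries. Cxcl9 stood at 249 and 396 in Dox replicates 1 and 3, and at 254 in No Dox replicate 3, where Ifng was at the floor. In the macrophage libraries Ifng stood at 29.4, 5.50 and 57.6 and in the endothelial libraries at 1, 1.51 and 6.25. Cxcl9 in the same macrophage libraries was 2906, 4901 and 2454, highest where Ifng was lowest. The part of Ifng in the levels of these ligands was not tested.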
